A study of Mus musculus with 16 samples.

Results

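Gene expression in the gastrocnemius, the large calf muscle, was compared between mice carrying Rab27 knock-down tumors (KD mice) and tumor-free normal control mice (NOR mice), to find out which differences from normal muscle were left in KD mice. The comparison rested on 8 of the 16 RNA-seq libraries of the series, 4 KD and 4 NOR, chosen by their labels, with 1 mouse per library. The other 8 libraries came from cachexia mice with unmodified tumors (CAC mice) and from amiloride-treated tumor-bearing mice (AM mice).

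KD-1 and KD-2 were labelled C57BL/6 and received LLC lung carcinoma cells, while KD-3 and KD-4 were labelled BABL/c, which the methods of the study spell BALB/c, and received CT26 colon carcinoma cells. In both cell lines, Rab27a and Rab27b had been targeted with lentiviral shRNAs before the subcutaneous injection on day 0. NOR-1 and NOR-2 were labelled C57BL/6 and NOR-3 and NOR-4 BABL/c, and they received PBS in place of tumor cells. All mice were adult, both groups received daily intraperitoneal PBS from day 9, and the muscles were taken on day 30. KD and NOR mice thus differed in the tumor, the knock-down and the viral vector at once, and these cannot be told apart in this comparison. CAC mice carried the same cell lines without the knock-down and also received PBS, and AM mice received amiloride at 2 mg/kg in its place.

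RAB27A and RAB27B are small GTPases that let multivesicular bodies dock at the plasma membrane, the step that releases exosomes. In cancer cachexia, tumor-derived signals raise ubiquitin ligases such as atrogin-1 (Fbxo32) and MuRF1 (Trim63) in muscle, and proteasomes and autophagy then degrade muscle protein. Tumors also act on the host outside muscle, for instance on the bone marrow, which supplies neutrophils and red cells to the blood, and a muscle library contains the RNA of the blood and connective tissue within the sample.

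The 8 libraries held 43804838 to 61032708 counts, with 14748 genes tested. Several libraries stood apart from the rest. The summed level of 12 B cell genes was 5.12, 389, 381, and 352 CPM (counts scaled to a common library size) in NOR-1 to NOR-4 and 499, 1.25, 1.15, and 183 CPM in KD-1 to KD-4, so that NOR-1, KD-2, and KD-3 had almost none. The 17 T cell and NK genes had the same split, at 5.0 to 11.5 CPM in these 3 libraries and at 107 to 280 CPM in the other 5. The 11 lymph node stroma genes also had their lowest sums there, at 309 to 315 CPM against 422 to 699 CPM. KD-3 had 0 CPM of 4 male-specific genes, against 110.4 to 133 CPM in the other 7 of these 8 libraries. The study's sources differ on whether both sexes were used, and the group cannot be balanced for sex here. Between the labelled strains, edgeR found 0 of 15220 genes at an FDR of at most 0.05 over all 16 libraries and 248 (1.63%) at an unadjusted p of at most 0.05. The biological coefficient of variation, the spread between mice of a group, was 0.485 in KD and 0.295 in NOR. The skeletal muscle markers were present throughout, with summed levels of 135990 to 207090 CPM in NOR and 110000 to 188040 CPM in KD.

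No gene was called different between KD and NOR mice. With edgeR's quasi-likelihood test, 0 of 14748 genes (0%) passed a Benjamini-Hochberg FDR of at most 0.05 together with a fold change of at least 1.5, and the smallest FDR was 0.234. At an unadjusted p of at most 0.05, 319 genes (2.16%) were higher in KD and 203 (1.38%) were lower, 522 in all (3.54%). Limma-voom also called 0 genes, with 476 past the unadjusted limit. DESeq2 called 31 genes, 27 higher and 4 lower, with 674 past the unadjusted limit. CAC mice, compared with the same 4 NOR mice, had 633 genes called higher (4.32%) and 753 called lower (5.13%) of 14666 tested. The values that follow for KD against NOR are therefore sizes, with 95% intervals for the main genes, and the unadjusted p-values serve to rank them. Of 108 named genes past the unadjusted limit, 60 stayed past it with each of the 8 mice left out in turn.

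The intervals were close to no difference for a part of the genes only. The 95% interval of the fold change lay within 1.5-fold of no difference for 6198 genes (42%) and within 2-fold for 10086 (68.4%). For the remaining genes the interval reached past a 2-fold difference at this spread between mice. Estimated differences of at least 2-fold were found for 294 genes in the direction of KD (1.99%) and for 200 in the direction of NOR (1.36%). The 4 KD libraries lay wholly above the 4 NOR libraries for 183 genes (1.24%) and wholly below for 134 (0.909%). For a single gene, such a separation gives a two-sided exact permutation p of 0.0286, the smallest that 4 against 4 mice allow. Random group labels would separate a share of about 0.0286 of genes in one direction or the other, and the observed shares were not above it. The share past the unadjusted p limit of 0.05, 3.54%, was likewise not above that limit.

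Tmem30a had the smallest p-value of all genes. It encodes the accessory subunit of the flippases, the pumps that keep phosphatidylserine on the inner side of the plasma membrane, and lies on the minus strand at chr9:79768943-79793507 (GRCm38, GENCODE M21). Its level was 59.3, 58.3, 62.5, and 53.8 CPM in NOR-1 to NOR-4 and 95.4, 114, 109, and 101 CPM in KD-1 to KD-4. The lowest KD mouse was far above the highest NOR mouse, with means of 58.5 ± 3.61 CPM (SD, n = 4) in NOR and 105 ± 8.25 CPM in KD. The log2 fold change was 0.85 (95% interval 0.63 to 1.07, edgeR FDR = 0.234, exact permutation p = 0.0286), and CAC mice differed from NOR by 0.85 (FDR = 0.0112). DESeq2 gave this gene an adjusted p of 2.24e-13.

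The next genes in the order of p were modest in size and evenly shifted. Cnppd1 ranged from 19.4 to 23.2 CPM in NOR and from 31.2 to 43.9 CPM in KD, a log2 difference of 0.76. Fosl2, an AP-1 transcription factor, was at 33.8, 33.2, 30.5, and 29.3 CPM in NOR and at 41.8, 54, 52.7, and 43.1 CPM in KD, a log2 difference of 0.60 (0.35 to 0.85). Gda, a guanine deaminase of purine breakdown, was at 24.5 to 35.8 CPM in NOR and at 46.4 to 77.3 CPM in KD, and its log2 difference was 1.02. In each of these 3 genes every KD mouse lay above every NOR mouse. The same held for Fnip2, which encodes a partner of folliculin in nutrient signaling, with a log2 difference of 0.51.

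Hdc encodes histidine decarboxylase, the enzyme that makes histamine. It was at 1.0, 2.11, 1.14, and 1.97 CPM in NOR-1 to NOR-4 and at 6.83, 9.57, 7.67, and 3.4 CPM in KD-1 to KD-4, with KD-4 closest to the NOR mice. The log2 fold change was 2.13 (1.25 to 3.02, edgeR FDR = 0.999), next to 2.65 in CAC against NOR. Inhbb, the beta B subunit of activin B and inhibin B, was at 5.03, 5.82, 4.56, and 6.04 CPM in NOR and at 12.2, 18.6, 9.13, and 9.9 CPM in KD, with a log2 fold change of 1.22 (0.65 to 1.79). Each KD mouse was above each NOR mouse for this gene too, and the log2 fold change in CAC was 1.15.

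In the opposite direction, Nup62 and Map3k7cl were the genes of smallest p. Nup62, a component of the nuclear pore, was at 57.4, 20, 52.9, and 44.6 CPM in NOR-1 to NOR-4 and at 15.3, 17, 10.5, and 10.1 CPM in KD-1 to KD-4. NOR-2 was close to the KD mice, and the other NOR mice were far above them, with a log2 fold change of -1.71 (-2.46 to -0.96). Map3k7cl was at 17.2 to 25 CPM in NOR and at 7.13 to 12.6 CPM in KD, a log2 fold change of -0.99. Among the 10 genes of smallest p, which also included Acot1 (described with fatty acid genes), 8 were higher and 2 were lower in KD.

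**Figure D1:**
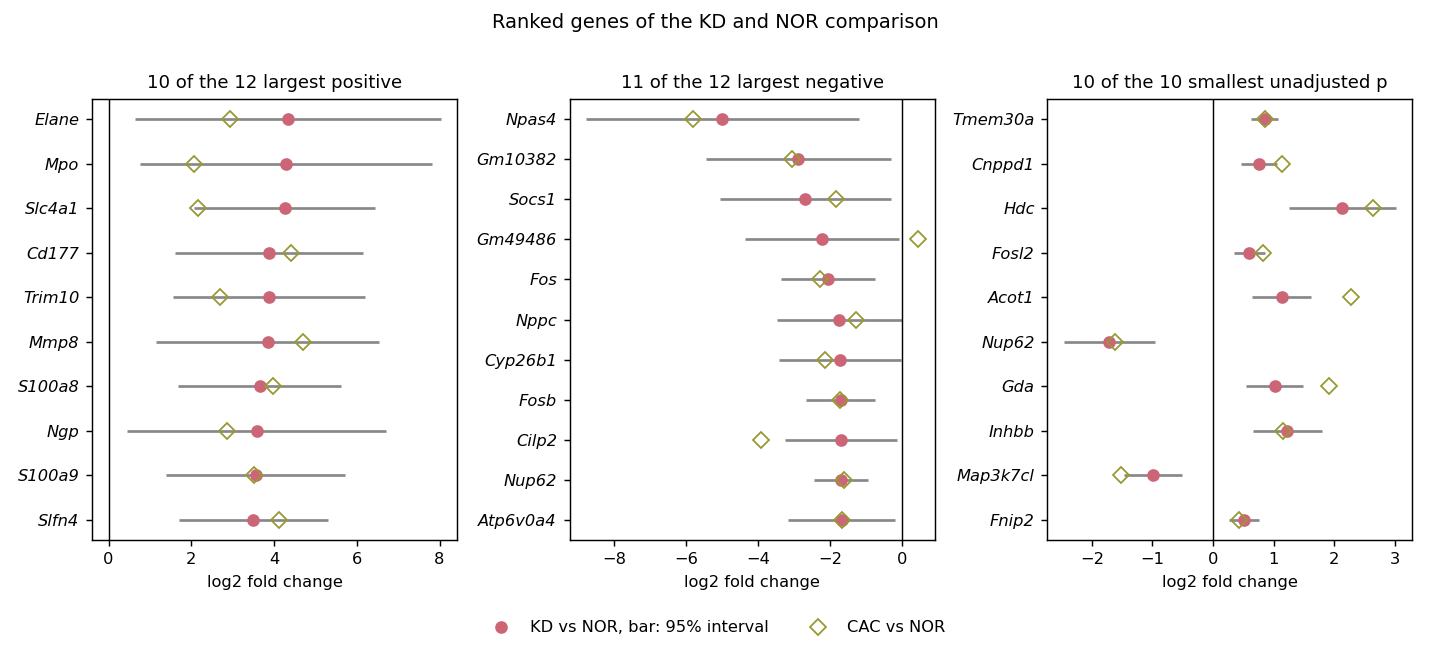
Log2 fold changes of KD against NOR (circles, with 95% intervals) and of CAC against NOR (open diamonds) for 3 rankings of genes (10 of the 12 largest positive, 11 of the 12 largest negative, and the 10 of smallest p), on linear axes. Intervals are several units wide for the genes of largest positive and negative change, such as Elane (4.33) and Npas4 (-4.99), and narrow for Tmem30a (0.63 to 1.07), and the KD and CAC estimates share the same 4 NOR libraries.

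Ranked by size instead, the top of the list was filled by genes of blood cells. Of the genes with at least 1 CPM on average, an unadjusted p of at most 0.05, and one direction in the mice of either labelled strain, 276 were higher and 180 lower in KD. The 12 with the largest positive differences included Elane (4.33), Mpo (4.28), Slc4a1 (4.25), Cd177 (3.88), Trim10 (3.88), Mmp8 (3.85), S100a8 (3.66), Ngp (3.58), S100a9 (3.55), and Slfn4 (3.50), on the log2 scale. Slc4a1 and Trim10 are genes of red cell precursors. Elane, Mpo, Cd177, Mmp8, S100a8, Ngp, and S100a9 are genes of neutrophils or their precursors, and Slfn4 is a Schlafen gene of myeloid cells. No NOR mouse was above 13.4 CPM for any of these 10. Those near 0 in NOR mice passed the expression filter mainly through KD mice, which fixed their direction in part. In Slc4a1, Trim10, and Slfn4 every KD mouse was above every NOR mouse, and in the other 7 of them KD-3 lay within or below the NOR range. Without KD-1, the values of Elane and Mpo were 2.71 and 2.29.

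Red cell genes were the most regular of these differences. Of 12 erythroid genes tested, 9 were higher at the unadjusted limit (background 2.16%), 1 was lower (1.38%), and in those 10 the groups did not overlap (background 1.24% above and 0.909% below). The median log2 fold change was 2.74, against 0.018 over all genes tested. The higher genes included the globins Hbb-bs, Hbb-bt, Hba-a1, and Hba-a2 together with Slc4a1, Alas2, and Car2. Hbb-bs, a beta globin of adult red cells, was at 298, 401, 329.7, and 327 CPM in NOR and at 1292, 6441, 1032, and 686 CPM in KD, and its log2 fold change was 2.80 (1.21 to 4.40). KD-2 exceeded the other KD mice, and KD-4, the lowest of them, was still above every NOR mouse. Hbb-bt (2.90) and Hba-a2 (2.62) were likewise highest in KD-2 and lowest in KD-4 among KD mice, although reads of such near-identical globin copies may have been shared between them in a way the sources used here do not give. Without KD-2, the log2 fold changes were 1.57 for Hbb-bs, 1.46 for Hbb-bt, and 1.38 for Hba-a2.

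Slc4a1 encodes band 3, the anion exchanger of the red cell membrane. It was at 0.595, 0.396, 0.20, and 2.5 CPM in NOR-1 to NOR-4 and at 23.8, 26, 2.77, and 18.3 CPM in KD-1 to KD-4, a log2 fold change of 4.25 (2.07 to 6.44). Alas2, the first enzyme of heme synthesis in red cell precursors, was at 11.7 to 13.3 CPM in NOR and at 52, 318, 53.9, and 26.6 CPM in KD. Here KD-2 stood out once more. The log2 fold change was 3.17 in KD, or 1.82 without KD-2, and 2.59 in CAC against NOR.

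Tfrc, the transferrin receptor that brings iron into cells, went the other way. It was at 197, 172, 173, and 123 CPM in NOR and at 85.1, 92, 37, and 108 CPM in KD, with a log2 fold change of -1.03 (-1.74 to -0.32) and no overlap between the groups. In CAC mice its log2 fold change was -1.93 (FDR = 0.0117). In bulk samples, fewer cells of a type and less RNA per cell cannot be told apart, and the share of blood in each muscle was not measured.

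The summed erythroid level was 1544, 1787, 1543, and 1499.5 CPM in NOR and 4295, 21865, 3826, and 2579 CPM in KD. Leaving out KD-2 lowered the median to 1.43, with 9 of 12 genes higher at the unadjusted limit (background 1.96%). In the 5 libraries with B cell genes alone, 9 of the 12 were higher (background 5.07%), with a median of 1.29. At a minimum count of 50 the median was 2.67 and 8 of 11 were higher, next to 267 of all 13152 genes tested there. CAC mice had a median of 2.14 against the same NOR mice, with 6 genes called higher and 1 called lower.

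Neutrophil genes were higher in 3 of the 4 KD mice. Of 15 tested, 13 were higher at the unadjusted limit (background 2.16%), and the median log2 fold change was 3.40. Members near 0 in NOR mice passed the expression filter mainly through KD mice, so their direction was fixed in part by the filter. The medians of the single KD mice against the NOR mean were 4.42, 2.36, 0.11, and 3.89 for KD-1 to KD-4, so that KD-3 was at the level of normal muscle. Only Csf3r and Ly6g separated the groups fully (background 1.24%). The summed level was 16.4, 19.4, 36.9, and 55.4 CPM in NOR and 492, 181, 23.9, and 394 CPM in KD.

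S100a8 and S100a9 encode the subunits of calprotectin, an abundant neutrophil protein. S100a8 was at 1.57, 0.874, 3.78, and 4.52 CPM in NOR and at 48.1, 31.2, 3.28, and 52.4 CPM in KD, with a log2 fold change of 3.66 (1.69 to 5.63). S100a9 followed, with 1.72 to 13.4 CPM in NOR and 135, 57.6, 6.13, and 92.2 CPM in KD. KD-3 lay within the NOR range for both genes. Csf3r, the receptor for granulocyte colony-stimulating factor, was at 2.0, 2.41, 2.44, and 2.36 CPM in NOR and at 15.4, 11.2, 2.62, and 7.63 CPM in KD. For this gene KD-3 was barely above the highest NOR mouse.

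The granule genes Mpo and Elane, made early in neutrophil development, were high mainly in KD-1. Mpo reached 26.2 CPM in KD-1 and 5.57 CPM in KD-4, while KD-2 and KD-3 were at 0.45 and 0.0754 CPM, at or below the NOR range of 0.108 to 0.78 CPM. The summed level of 13 cartilage and bone genes was 12.3, 12.8, 20.4, and 20.9 CPM in NOR and 10.8, 10.7, 11.9, and 58.9 CPM in KD. It was above the NOR range in KD-4 alone, and the part of bone or marrow in the Mpo and Elane values was not tested. Retnlg (2.83), Il1b (2.47), and Lcn2 (3.01), genes of mature neutrophils, were high in KD-1, KD-2, and KD-4. Cxcr2, a chemokine receptor, had a log2 fold change of 1.38 with an interval that included 0 (-0.58 to 3.34). Without KD-3, 14 of 15 genes passed the unadjusted limit (background 2.48%), and in the 4 mice labelled BABL/c alone 0 did, next to 124 of all 14961 genes tested there. With limma-voom 5 passed (background 1.65%), and with the replicate block 8 did (background 1.24%). At a minimum count of 50, 9 of 11 passed, next to 267 of all 13152 genes tested there. In CAC mice the median was 2.78, with 8 genes called higher.

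**Figure D2:**
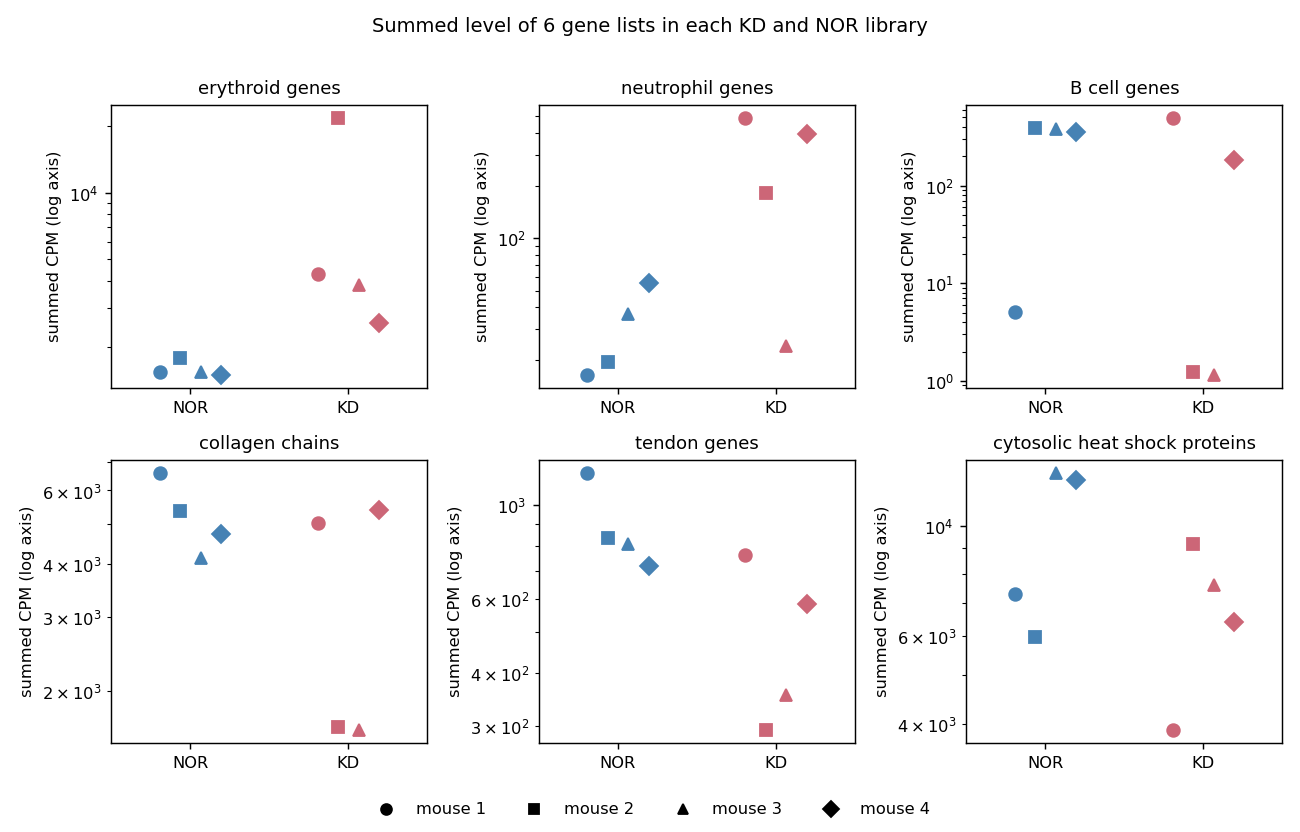
Summed CPM (log axes) of 6 gene lists in each library, with 1 symbol per mouse number and NOR in blue and KD in red. The 4 KD libraries lie above all NOR libraries for erythroid genes, KD-3 lies among the NOR libraries for neutrophil genes, and KD-2 and KD-3 lie below all others for collagen and tendon genes, while NOR-1, KD-2, and KD-3 lack B cell genes.

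B cell, T cell, and macrophage genes did not follow this pattern. The 12 B cell genes had a median log2 fold change of -0.72, and the medians of KD-1 to KD-4 were 1.94, -6.87, -6.67, and 0.54. None of the 12 passed the unadjusted limit. Of 17 T cell and NK genes, Cd28, a costimulatory receptor of T cells, alone passed in the direction of NOR (-0.50, background 1.38%), and the list median was -0.89. Among 19 macrophage genes, 1 passed, in the direction of NOR (background 1.38%), and the list median was 0.028, with 0.83, -1.22, -1.89, and 0.89 in KD-1 to KD-4. In the 5 libraries with B cell genes, which leave out KD-2, KD-3, and NOR-1, the macrophage median was 0.61, and 9 of 19 genes were higher at the unadjusted limit (background 5.07%) and 0 lower.

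Genes of the IL-6 and STAT3 response, a cytokine pathway tied to cachexia, differed in part, and the list shares Lcn2 with the neutrophil genes. Of 29 tested, 5 were higher (background 2.16%) and 1 lower (1.38%), and the median was 0.36. Stat3, the transcription factor itself, was at 99.6, 103, 101, and 95 CPM in NOR and at 127, 136, 138, and 109 CPM in KD. These groups did not overlap, with a log2 fold change of 0.36 (0.12 to 0.60) next to 0.93 in CAC mice (FDR = 0.0277). Compared directly, KD and CAC mice differed by -0.58 in Stat3 (edgeR FDR = 0.419), so that this gap did not pass the test.

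Lrg1, a secreted glycoprotein of the acute phase, was at 30, 46.7, 52.7, and 78.6 CPM in NOR and at 103, 188, 106, and 101 CPM in KD. Every KD mouse was above every NOR mouse, KD-2 the most, and the log2 fold change was 1.26 (0.51 to 2.01). Osmr, the receptor for oncostatin M, was at 20.5, 24.2, 27.5, and 29.1 CPM in NOR and at 43.2, 66.1, 49.9, and 28.4 CPM in KD, where KD-4 lay within the NOR range. Cebpb, a C/EBP transcription factor, had log2 fold change 1.79 and was highest in KD-3 (101 CPM) and KD-2 (83.2 CPM). Socs1, a feedback inhibitor of cytokine signaling, was lower by this ranking (-2.69), and that value was set by NOR-2 at 52.8 CPM, since the other NOR mice ranged from 2.46 to 9.02 CPM. Il6ra, the IL-6 receptor, was at 9.34 to 22.1 CPM in NOR and at 17.8 to 23 CPM in KD (0.32), next to 2.04 in CAC (FDR = 0.00405), and in the direct comparison of KD with CAC it was lower in KD by a log2 value of -1.72 (edgeR FDR = 0.0443). The list median was 0.64 in the mice labelled C57BL/6 alone and -0.084 in those labelled BABL/c alone.

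Genes of fatty acid use made up the most even group of muscle genes. Of 48 genes of fatty acid oxidation and PPAR response tested, 45 had a positive log2 fold change (53.7% of all genes tested did), 8 were higher at the unadjusted limit (background 2.16%), and none was lower. The median was 0.29, and the 4 KD mice were close to each other, with medians of 0.26, 0.19, 0.37, and 0.18. In CAC mice the median was 0.17, with 4 called higher and 3 called lower.

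Acot1 and Acot2 encode acyl-CoA thioesterases, which free fatty acids from coenzyme A in the cytosol and in mitochondria. Acot1 was at 2.63, 2.1, 2.08, and 2.7 CPM in NOR and at 5.14, 5.59, 6.32, and 3.74 CPM in KD, a log2 fold change of 1.13 (0.65 to 1.62), next to 2.27 in CAC. Acot2 was at 17.8, 17.6, 12.1, and 15.3 CPM in NOR and at 26.7, 28.5, 27.9, and 20 CPM in KD (0.72). Both genes separated the groups fully, and since they are near copies of each other, reads may have been split between them.

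The lipase gene Pnpla2 (ATGL), which starts the breakdown of stored triglyceride, was at 306, 324, 289.7, and 589.9 CPM in NOR and at 750.2, 653, 539.8, and 625 CPM in KD. NOR-4 lay within the KD range, and the log2 fold change was 0.77 (0.17 to 1.37). Adipocyte genes also varied between these mice, and their summed level was 4477, 4695, 4534, and 12798 CPM in NOR and 17603, 5497, 6051, and 12180 CPM in KD, highest in NOR-4, KD-1, and KD-4. The part of fat tissue in the Pnpla2 value was not tested. Slc27a1 (0.68) and Cd36 (0.48), which carry fatty acids into the cell, and Mlycd (0.49), which removes the malonyl-CoA that blocks their entry into mitochondria, were also higher at the unadjusted limit. Cd36 was at 279.6 to 412 CPM in NOR and at 403 to 609.7 CPM in KD, an overlap at the lower end. Pdk4, the kinase that holds back pyruvate oxidation, was at 426, 477, 89.2, and 218 CPM in NOR and at 557, 583, 305, and 316 CPM in KD, and its interval included 0 (-0.55 to 1.67). Without NOR-3, 3 of the 48 genes were past the unadjusted limit (background 1.39%), and in the 5 libraries with B cell genes 11 were (background 5.07%).

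Tendon and collagen genes lay mostly on the lower side. All 11 tendon genes tested had a negative log2 fold change, 3 were lower at the unadjusted limit (background 1.38%), 3 had groups without overlap (background 0.909%), and the median was -0.94. Of 36 collagen chains, 32 were negative, 3 were lower at that limit (background 1.38%), again without overlap, and the median was -0.53. The single mice differed widely. Collagen medians were -0.098, -1.58, -1.15, and 0.0087 for KD-1 to KD-4 and tendon medians were -0.35, -2.82, -1.48, and -0.49, so that KD-2 and KD-3 carried most of the difference. Of 15 markers of fibroblasts and fibro-adipogenic progenitors, Col1a1 and Col3a1 among them, 14 were negative and 0 passed the limit, and their summed level was 6007 to 7403 CPM in NOR and 6513, 2574, 2529.7, and 7818 CPM in KD-1 to KD-4, low in the same 2 mice. The part of these cells in the collagen and tendon values was not tested.

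Chad, chondroadherin, a leucine-rich matrix protein, was at 47.4, 51.9, 38.8, and 34.7 CPM in NOR and at 16.4, 3.1, 15.1, and 24.2 CPM in KD, with a log2 fold change of -1.54 (-2.69 to -0.39). Cilp2, a matrix protein related to one of cartilage, was at 55.2, 42.5, 31.8, and 35.6 CPM in NOR and at 13.3, 1.55, 7.56, and 27 CPM in KD (-1.71). In both genes the groups did not overlap, KD-2 was the lowest and KD-4 came nearest to the NOR mice. Fmod, fibromodulin, which shapes collagen fibrils, was at 287 to 522 CPM in NOR and at 69.8 to 289 CPM in KD (-1.01). Wif1, a secreted Wnt inhibitor, was the remaining tendon gene without overlap, with a log2 fold change of -1.15 (-2.76 to 0.45).

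Col8a2 encodes a short-chain collagen. It was at 12.3, 7.64, 6.26, and 5.82 CPM in NOR and at 3.0, 1.4, 2.75, and 4.61 CPM in KD, a log2 fold change of -1.42 (-2.29 to -0.55). Col12a1 (-0.92), a collagen of tendon and dense connective tissue, and Col22a1 (-0.90), a collagen of the junction between muscle and tendon, also had every KD mouse below every NOR mouse. Col1a1, the main fibrillar chain, was at 877, 686, 512, and 583 CPM in NOR and at 617, 112, 91.9, and 685 CPM in KD. KD-1 and KD-4 were within the NOR range and KD-2 and KD-3 were far below it, and the interval of the fold change was wide (-2.26 to 0.68). CAC mice had a log2 fold change of -3.61 for this gene (FDR = 7.28e-04).

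Other matrix genes had smaller differences. Of 47 matrix glycoproteins, proteoglycans, and collagen enzymes, 2 were higher (background 2.16%) and 3 lower (background 1.38%), with a median of -0.22. The median in the 5 libraries with B cell genes was 0.11, with 5 of 47 higher (background 5.07%) and 3 lower (background 2.49%). Mfap4, a microfibril-associated protein, was at 17.2 to 39 CPM in NOR and at 5.69 to 16.4 CPM in KD (-1.22), and Serpinh1, the chaperone of procollagen, had a log2 fold change of -0.45. Fbln5, fibulin-5 of elastic fibers, was higher in all KD mice, at 45.5 to 83.9 CPM against 34.6 to 43.9 CPM. In the 5 libraries with B cell genes, which leave out KD-2 and KD-3, the median of the collagen list was 0.019 and that of the tendon list -0.25. NOR-1, the control that also lacks B cell genes, had the highest collagen sum of all 8 libraries (6604 CPM), and the part of the B cell gene difference in the collagen values was not tested. In CAC mice the medians were -1.58 for collagens, 23 of them called lower, and -2.38 for tendon genes, 7 of them called lower.

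**Figure D3:**
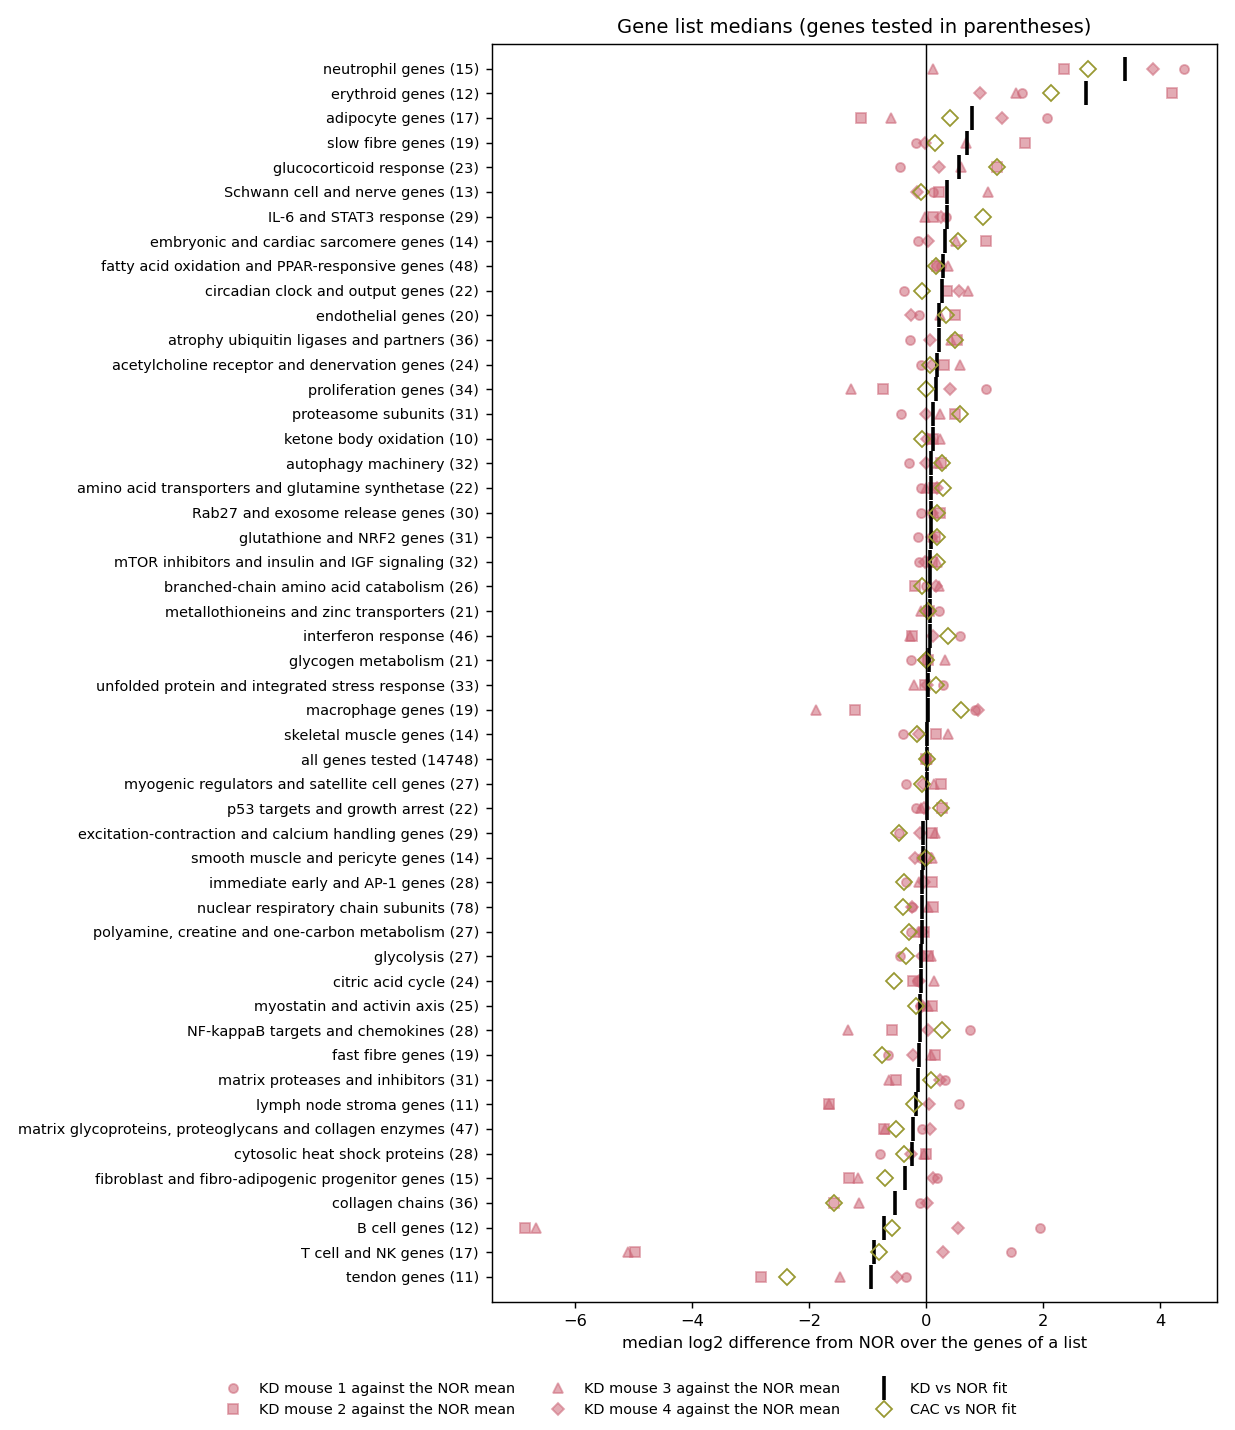
Median log2 difference from NOR over the genes of 49 lists and over all genes tested (number of genes in parentheses), as the KD against NOR fit (black bars), for each KD mouse against the NOR mean of log2 CPM (red symbols), and as the CAC against NOR fit (open diamonds). Neutrophil (3.40) and erythroid genes (2.74) stand at the top and tendon genes (-0.94) at the bottom, and KD-2 and KD-3 often lie on the other side of the fit from KD-1 and KD-4. The fit compares mean levels, so 1 high mouse can move it beyond most of the single-mouse values.

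The fitted log2 fold change was positive in 31 of 36 atrophy genes, 29 of 31 proteasome subunits, and 21 of 32 genes of autophagy (53.7% of all genes tested), while the single KD mice were spread on both sides of the NOR level. Among the atrophy ubiquitin ligases and partners, 2 were higher at the unadjusted limit (background 2.16%), Ctsl and Cebpb, with a list median of 0.23 next to 0.49 in CAC, where 14 were called higher. The list median was -0.06 in the 5 libraries with B cell genes. Fbxo32 was at 221, 164, 93, and 140.5 CPM in NOR-1 to NOR-4 and at 55.2, 618, 224, and 154 CPM in KD-1 to KD-4. Trim63 was at 529, 321, 269, and 342 CPM in NOR and at 99.5, 1023, 377, and 300.4 CPM in KD. For both ligases KD-2 was above, KD-1 below, and KD-4 within the NOR range, and KD-3 was within or just above it. The log2 fold changes were 0.77 (-0.66 to 2.20) and 0.31 (-1.03 to 1.65), next to 2.58 and 2.50 in CAC mice. The direct differences of KD from CAC, -1.82 for Fbxo32 (edgeR FDR = 0.351) and -2.21 for Trim63 (edgeR FDR = 0.277), did not pass the test either.

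KD-2 was also the highest of the KD mice for other genes tied to wasting. Eif4ebp1, a repressor of translation, was at 62.8, 163, 67, and 88.1 CPM in KD-1 to KD-4 and at 55.8 to 84.5 CPM in NOR. Cdkn1a, the cell cycle inhibitor p21, was at 18.4, 55.4, 21.1, and 12.2 CPM in KD and at 10.8 to 16.9 CPM in NOR, with a log2 fold change of 0.92 (-0.068 to 1.91). Cebpd reached 327 CPM in KD-2, and Bnip3, a mitophagy receptor, 399 CPM, while the other KD mice were at or below 64.1 and 220.5 CPM. Foxo1, the transcription factor upstream of the ligases, was at 45, 47.6, 46.1, and 67.4 CPM in NOR and at 54.3, 99.8, 83.2, and 45.2 CPM in KD. Ctsl, the lysosomal protease cathepsin L, was the even exception, at 109, 107, 121, and 112 CPM in NOR and 129, 146, 143, and 129.9 CPM in KD, with a log2 fold change of 0.29 (0.064 to 0.52).

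Proteasome subunits lay close to normal in the fit, with a median of 0.13 over 31 genes, none past the unadjusted limit in either direction and 61.3% with a 95% interval within 1.5-fold of no difference (background 42%). The single mice again differed, with medians of -0.43, 0.49, 0.24, and 0.0018. The list median was -0.14 in the 5 libraries with B cell genes. In CAC mice the median was 0.57, and 14 subunits were called higher. The autophagy machinery had a median of 0.089, with 0 of 32 genes past the limit. The glucocorticoid response list had a median of 0.56, with -0.45, 1.22, 0.60, and 0.23 in KD-1 to KD-4 and 1 of 23 genes, Cebpb, past the limit (background 2.16%). Its median was -0.19 in the 5 libraries with B cell genes.

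For genes of the respiratory chain, the citric acid cycle, and branched-chain amino acid breakdown, most intervals lay close to no difference. For nuclear subunits of the respiratory chain, 93.6% of 78 genes had an interval within 1.5-fold of no difference (background 42%), and none passed the unadjusted limit. The corresponding shares were 83.3% of 24 citric acid cycle genes and 76.9% of 26 genes of branched-chain amino acid breakdown, while those of ketone body oxidation (30.0%) and glycolysis (29.6%) were below the background. The log2 fold change was negative in 66 of the 78 respiratory chain genes, 19 of the 24 citric acid cycle genes, and 6 of the 26 branched-chain genes (46.3% of all genes tested). The medians of the first 2 lists were -0.067 and -0.090. In CAC mice they were -0.39, with 12 genes called lower, and -0.55, with 5 called lower. Glycolysis genes had a median of -0.082, next to -0.34 in CAC mice with 8 called lower. Pkm, muscle pyruvate kinase, was at 4848, 3664, 3983, and 3254 CPM in NOR and at 2606, 3185, 4338, and 3479 CPM in KD, with a log2 fold change of -0.20 (-0.66 to 0.25) next to -1.36 in CAC. Eno3 (-0.29 and -1.49), Tpi1 (-0.14 and -1.42), and Pgam2 (-0.21 and -1.45), in the order KD and CAC, were alike in this respect.

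Ketone body genes gave mixed values. Oxct1, the enzyme that activates ketone bodies for oxidation, was at 301 to 435 CPM in NOR and at 231 to 407 CPM in KD, with a log2 fold change of -0.16 (-0.59 to 0.28). Bdh2, a hydroxybutyrate dehydrogenase, was at 2.54, 2.52, 1.78, and 2.78 CPM in NOR and at 1.09, 1.22, 0.886, and 1.97 CPM in KD (-0.88, -1.61 to -0.16). Acss1, a mitochondrial acetyl-CoA synthetase, was higher at the same limit, at 47.1 to 105 CPM against 40.4 to 48.5 CPM (0.65, or 0.37 without KD-3, where it no longer passed). For branched-chain amino acids, Bckdhb, a subunit of the dehydrogenase that commits them to breakdown, was at 17.2 to 21.1 CPM in NOR and 22.3 to 31.4 CPM in KD (0.47), and Bckdk, the kinase that inhibits this enzyme, was lower (-0.28). Auh, a later enzyme of leucine breakdown, was at a log2 fold change of 0.29. Slc37a4, the glucose-6-phosphate transporter, was at 149, 108, 128, and 101 CPM in NOR and at 85.7, 75.6, 80.2, and 103 CPM in KD (-0.48 and, in CAC, -2.17).

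Polyamine genes included 3 whose groups did not overlap, Amd1, its near copy Amd2, and Smox (background 0.909%). Amd1, which makes the aminopropyl donor for spermidine and spermine, was at 1119.6, 1294, 1409, and 1172 CPM in NOR and at 497, 659, 189, and 961 CPM in KD. KD-3 was the lowest and KD-4 the nearest to NOR, with a log2 fold change of -1.10 (-2.07 to -0.14), next to -2.99 in CAC (FDR = 0.0059). Reads may have been shared between Amd1 and Amd2, and the log2 fold change of Amd2 was -0.80. Smox, spermine oxidase, was at 460.3 to 526 CPM in NOR and at 235, 415, 143, and 367 CPM in KD (-0.71). Azin1, an activator of ornithine decarboxylase, had a log2 fold change of -0.42. Gnmt, a glycine methyltransferase, was at 0.731 to 1.25 CPM in NOR and at 3.15 and 2.55 CPM in KD-2 and KD-3 (0.95). Of the 27 genes in this list 1 was higher (background 2.16%) and 3 were lower (background 1.38%), with a median of -0.068.

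Of 19 fast fiber genes, 6 had a positive log2 fold change, 1 was lower at the unadjusted limit (background 1.38%), and the median was -0.13, with -0.65, 0.16, 0.086, and -0.23 in KD-1 to KD-4. The lower gene, Myl1, the essential light chain of fast fibers, was at 8969, 7602, 7060, and 6487 CPM in NOR and at 4946, 5065, 5112, and 5918 CPM in KD. The groups did not overlap, and the log2 fold change was -0.51 (-0.89 to -0.12), next to -1.80 in CAC. All 19 slow fiber genes had a positive log2 fold change, with a median of 0.69 and 3 higher at the unadjusted limit, Sln, Myh7b, and Cd36, which is also a fatty acid gene (background 2.16%), but the medians of KD-1 to KD-4 were -0.18, 1.69, 0.68, and -0.024. Sln, sarcolipin, a regulator of the calcium pump, was at 12, 5.71, 2.06, and 3.46 CPM in NOR and at 11.7, 146, 21.6, and 5.97 CPM in KD, and KD-2 made its log2 fold change of 3.02, which was 1.19 without that mouse. Myh7b, a slow myosin heavy chain (0.90), and Myog, a myogenic transcription factor known to increase after denervation (0.91), were high in KD-2 and KD-3. Myh6, the alpha cardiac myosin heavy chain, was highest in KD-1 (1.67, or 1.07 without that mouse). Xirp1, a protein of injured and remodeling muscle, was at 328, 225, 547, and 582 CPM in NOR and at 117, 357, 175, and 181 CPM in KD, low in KD-1, KD-3, and KD-4 (-1.02). Pax7, the marker of satellite cells, had a log2 fold change of -0.51, and Hes1, a Notch target, one of 0.57. Colq, which anchors acetylcholinesterase at the synapse, was at 0.50.

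The activin axis was split. Beside Inhbb, Id1, a target of bone morphogenetic proteins, was higher (0.91, or 0.56 without KD-2, where it no longer passed), while Smad3, a signal transducer of activin and myostatin, and Gdf11, a relative of myostatin, were lower. Smad3 was at 170.0, 157, 119, and 84.5 CPM in NOR and at 76.7, 81.9, 85.4, and 83.7 CPM in KD, with NOR-4 at the level of the KD mice (-0.68). Gdf11 was at 14 to 16.5 CPM in NOR and at 9.59 to 15.1 CPM in KD (-0.42). Of the 25 genes, 2 were higher (background 2.16%) and 2 lower (background 1.38%), and the median was -0.11.

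Several of the largest negative differences rested on NOR-3 and NOR-4. Hspa1b, an inducible HSP70, was at 24.7, 35.1, 2454, and 2242 CPM in NOR-1 to NOR-4 and at 14.5, 53.1, 40.4, and 305 CPM in KD-1 to KD-4. Dnajb1 (-2.21), Hsp90aa1 (-1.57), and Dnaja1 (-1.08), further genes of the heat shock response, were likewise high in NOR-3 and NOR-4 alone. In the mice labelled C57BL/6, the log2 fold changes of Hspa1b and Dnajb1 were 0.19 and 0.048. Of the 28 cytosolic heat shock proteins tested, 23 had a negative log2 fold change, 4 were lower at the unadjusted limit (background 1.38%) and 0 higher, and the median was -0.23. The number lower was 13 in the mice labelled BABL/c (background 1.46%) and 0 in those labelled C57BL/6 (background 1.13%). It was 9 in the 5 libraries with B cell genes (background 2.49%), 12 with labelled strain as a covariate and KD-2 left out (background 1.5%), and 0 without NOR-3 (background 0.815%). Npas4, an activity-dependent transcription factor and the largest negative difference of all (-4.99), was at 0.0541, 0.33, 19.7, and 19.7 CPM in NOR and at 0.050 to 0.669 CPM in KD. Gm10382 (-2.89) had the same order of mice. NOR-1 and NOR-2 were within or near the KD range for these genes.

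Fos and Fosb kept a separation that did not rest on those controls alone. Fos was at 30.4, 50.9, 143, and 115 CPM in NOR and at 26.4, 16.6, 8.16, and 29.6 CPM in KD, with a log2 fold change of -2.07 (-3.37 to -0.76), and Fosb was at 3.74, 2.77, 8.58, and 6.43 CPM in NOR and at 2.14, 1.07, 1.28, and 2.01 CPM in KD (-1.72). Ier3, another immediate early gene, was in the opposite direction (1.40), high in KD-2 and KD-3. Over the 28 immediate early and AP-1 genes, 2 were higher (background 2.16%) and 2 lower (background 1.38%), with a median of -0.066. The number lower was 7 in the mice labelled BABL/c (background 1.46%), 0 in those labelled C57BL/6 (background 1.13%), and 5 with labelled strain as a covariate and KD-2 left out (background 1.5%).

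The remaining genes of largest negative difference included Cyp26b1 (-1.72), which degrades retinoic acid, Nppc (-1.75), which encodes C-type natriuretic peptide, Atp6v0a4 (-1.69), a proton pump subunit, and the predicted gene Gm49486 (-2.23). Gm49486 rested on NOR-1, at 6.96 CPM, while no other mouse was above 0.579 CPM. Cyp26b1 was at 184, 21, 81.5, and 35.6 CPM in NOR and at 34.7, 18.9, 5.98, and 34.9 CPM in KD, an overlapping range in which KD-3 was the lowest. The values were -0.96 for Cyp26b1 and -0.34 for Gm49486 without NOR-1, and -1.04 for Nppc without NOR-2. Of these, Atp6v0a4 alone separated the groups, at 1.5 to 2.87 CPM in NOR and 0.0999 to 1.17 CPM in KD.

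Smaller groups held single genes past the limit. Gsr, glutathione reductase, was at 26.8, 24.3, 19.9, and 22.3 CPM in NOR and at 34.2, 32.4, 28.4, and 27.7 CPM in KD (0.41), and Gstm2, a glutathione transferase, was highest in KD-2 and KD-3 (0.82). The zinc exporter Slc30a1 was at 8.31 to 9.67 CPM in NOR and 10.1 to 13.2 CPM in KD, while the zinc importer Slc39a14, linked to muscle wasting in tumor-bearing mice, was at 17.2, 16.2, 13.6, and 19 CPM in NOR and at 16.5, 25.2, 17.2, and 17 CPM in KD (-0.20 to 0.61), next to a log2 fold change of 1.91 in CAC. Of 22 genes of amino acid transport, Slc3a2 (0.71, or 0.41 without KD-2) and Slc43a2 (0.34) were higher (background 2.16%) and Slc38a4 (-0.90) lower (background 1.38%). The 20 endothelial genes had a median of 0.23, with 14 positive, 1 higher at the unadjusted limit (background 2.16%) and 2 lower (background 1.38%), and with labelled strain as a covariate 0 passed in either direction. The 2 lower genes were the peptide gene Apln (-1.10) and its receptor gene Aplnr (-0.87, or -0.52 without NOR-1). Vwf, von Willebrand factor, the higher gene, was at 147 to 199 CPM in NOR and at 186, 427, 415, and 169 CPM in KD (0.75), so that KD-2 and KD-3 made the difference. Igfbp5, a binding protein of insulin-like growth factors, was at 633 to 1178 CPM in NOR and 503 to 799 CPM in KD (-0.94 to 0.099).

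**Figure D4:**
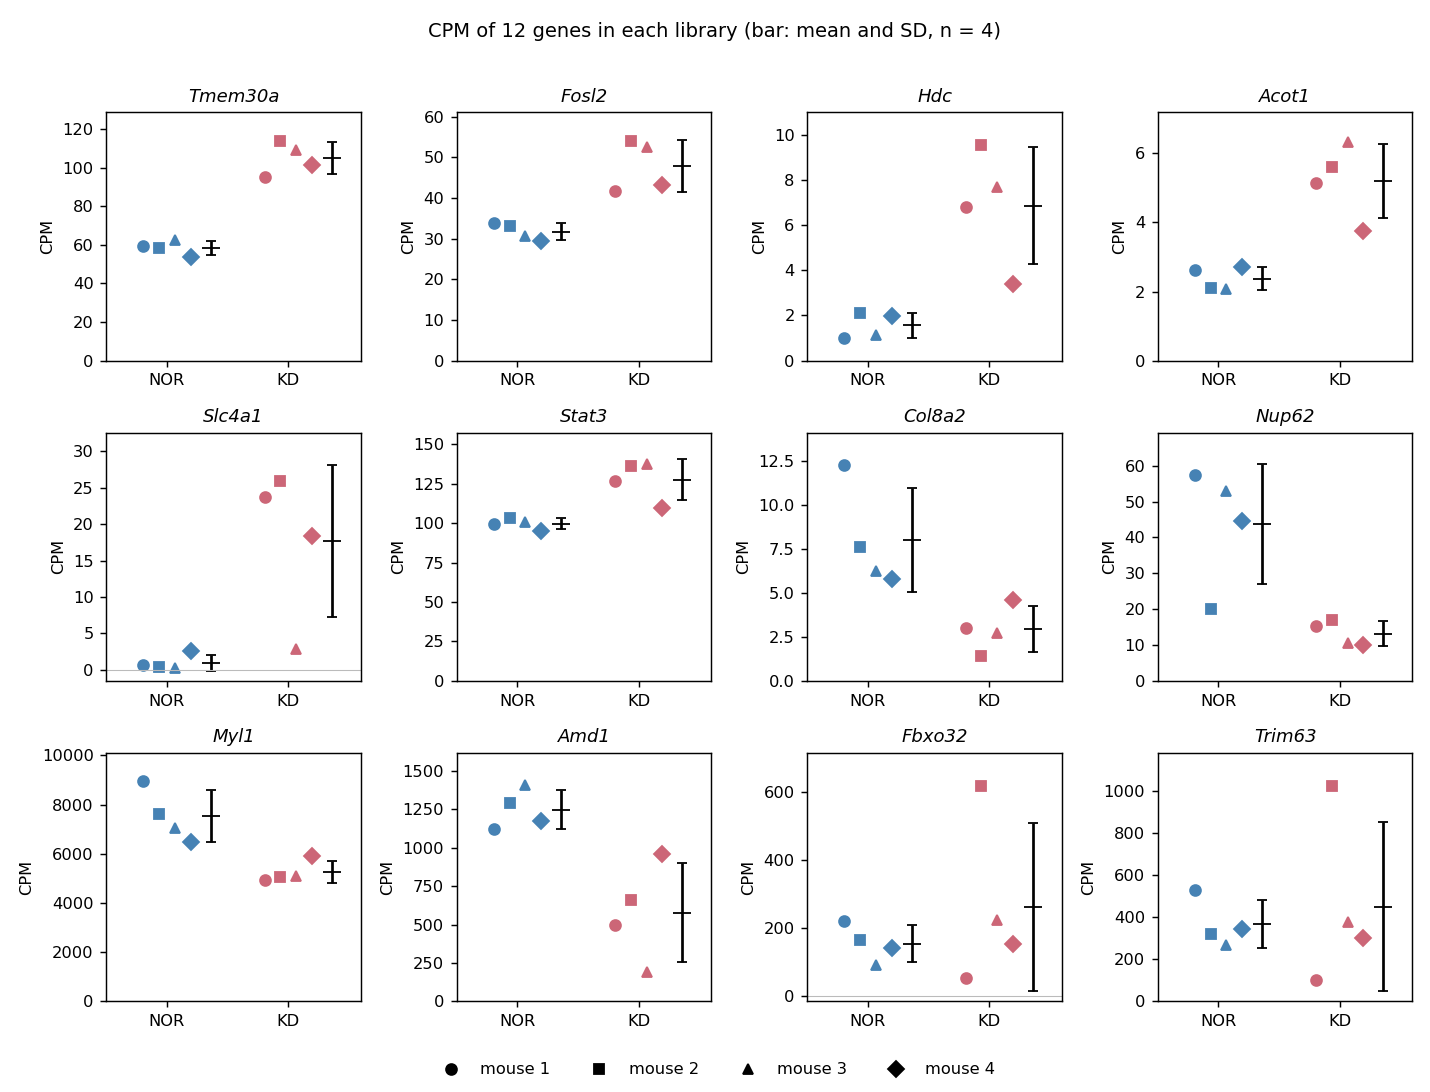
CPM of 12 genes in each NOR (blue) and KD (red) library, 1 symbol per mouse number, with black bars for the mean and SD (n = 4), on linear axes that include 0. Tmem30a, Fosl2, Hdc, Acot1, Slc4a1, and Stat3 are higher in every KD mouse than in any NOR mouse, Col8a2, Nup62, Myl1, and Amd1 are lower in every KD mouse, and Fbxo32 and Trim63 spread from below to above the NOR range, with KD-2 the highest.

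Groups of signaling and stress genes had few genes past the unadjusted limit in the comparison of all 8 mice. None of 33 genes of the unfolded protein and integrated stress response passed, with a median of 0.033, and none of 32 genes of mTOR, insulin, and IGF signaling did (0.07). Of 46 interferon response genes 1 was higher (background 2.16%), the list median was 0.059, and the medians of KD-1 to KD-4 were 0.59, -0.25, -0.27, and 0.12. In the 5 libraries with B cell genes 6 of them were higher (background 5.07%), with a median of 0.29, and in the mice labelled BABL/c 3 were lower (background 1.46%). The 22 genes of the circadian clock and its outputs had a median of 0.28, with no gene past the limit, and medians of -0.38, 0.36, 0.71, and 0.57 in KD-1 to KD-4. With labelled strain as a covariate, 5 of the clock genes were higher (background 1.84%) and 2 lower (background 1.24%), and in the mice labelled C57BL/6 5 were higher (background 1.68%) and 1 lower (background 1.13%). Of 34 proliferation genes, 0 were higher (background 2.16%) and 1 lower (background 1.38%) over all 8 mice, with a median of 0.17. Their medians in KD-1 to KD-4, at 1.02, -0.74, -1.28, and 0.42, were high in KD-1 and KD-4 and low in KD-2 and KD-3, the same split as for the B cell genes. In the 5 libraries with B cell genes, 18 of 34 proliferation genes were higher at the unadjusted limit (background 5.07%), with a median of 0.68. Nerve and Schwann cell genes had a median of 0.36, set by KD-3, and genes of smooth muscle and pericytes one of -0.06, with 85.7% of intervals within 1.5-fold of no difference.

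The genes knocked down in the tumor cells were present in muscle at low levels. Rab27a was at 4.36, 7.92, 7.68, and 15.2 CPM in NOR and at 10.7, 12.5, 15.8, and 8.9 CPM in KD (0.43, -0.40 to 1.27), and Rab27b was at 0.528 to 0.81 CPM in NOR and at 0.264 to 2.16 CPM in KD (0.91, -0.40 to 2.21). Since the shRNAs were in the tumor cells, the muscle level does not check the knock-down. Of 30 genes of Rab27 and exosome release, 1 was higher at the unadjusted limit (background 2.16%). This was Hgs, an ESCRT-0 sorting protein, at 21.4, 17.4, 11.4, and 18.2 CPM in NOR and at 28.9, 49.6, 30.4, and 29.9 CPM in KD (1.03, 0.49 to 1.57), listed under ENSMUSG00000116045, an identifier whose symbol stands on more than 1 line of the table.

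The single mice lay outside the range of the controls to different extents. Counted gene by gene, KD-1 had 388 genes more than 2-fold above the highest NOR mouse and 274 more than 2-fold below the lowest. The counts were 240 and 742 in KD-2, 102 and 668 in KD-3, and 111 and 52 in KD-4. Set against the other 3 NOR mice, a smaller reference, the NOR mice had 24 to 250 genes above and 72 to 1015 below, the most below in NOR-1. By these counts KD-4 was the nearest to the NOR range. In KD-2 and KD-3 the low genes included those of lymphocytes, which NOR-1 lacked as well. The labels pair KD-1 with KD-2 and KD-3 with KD-4 by strain and tumor, while the list medians paired KD-2 with KD-3 in collagens, tendon, macrophages, and proliferation.

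No gene was called for a different KD effect between labelled strains. In the test of the interaction between group and labelled strain, 0 of 14748 genes (0%) passed an FDR of at most 0.05 with edgeR, 424 (2.87%) had an unadjusted p of at most 0.05, limma-voom called 0, and DESeq2 called 10. Ino80d, a subunit of a chromatin remodeling complex, was at 30.7, 36.2, 18, and 16.6 CPM in NOR and at 17.6, 16, 34.9, and 33.1 CPM in KD. Its mice labelled C57BL/6 were lower with a tumor and those labelled BABL/c higher, an interaction of 1.91 on the log2 scale (edgeR FDR = 0.704). Auts2 (2.21) was high in NOR-1 and NOR-2 alone, and Osbpl6 (1.71) was low in KD-1 and KD-2 alone. Each labelled strain held 2 mice per group. Whether the strain labels match the mice was not settled by the expression values, so values given by strain rest on the labels alone. Nnt, a mitochondrial transhydrogenase gene of which the C57BL/6J substrain carries a deletion, is listed as 2 overlapping genes, whose summed level was 47, 35.6, 27.2, and 31.8 CPM in NOR-1 to NOR-4 and 93.4, 77.3, 82.8, and 40 CPM in KD-1 to KD-4. In NOR the mice labelled C57BL/6 had the higher values, and in KD the labelled strains overlapped. Both Nnt genes were higher in KD at the unadjusted limit, with log2 fold changes of 0.94 and 1.36, and the summed level of KD-4 lay within the NOR range.

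The genes that separated AM from CAC mice gave a list that shared no library with the KD and NOR comparison. Of 298 genes called higher in CAC than in AM (2.03% of 14674), 297 were tested here, with a median log2 fold change of 0.20 in KD against NOR and 0.83 in CAC against NOR. The CAC medians of these genes come from the same 4 CAC libraries that chose them, so their direction is fixed in part by the choice. At the unadjusted limit 7 of them were higher in KD (background 2.16%) and 1 was lower. The medians of KD-1 to KD-4 were -0.43, 0.69, 0.27, and -0.047, highest in KD-2 and negative in KD-1 and KD-4. Without KD-2 the list median was -0.028. In the 5 libraries with B cell genes it was -0.19, with 3 genes higher and 14 lower at the limit (background 5.07% and 2.49%), and with labelled strain as a covariate and KD-2 left out it was -0.075, with 1 higher and 10 lower (background 1.61% and 1.5%). Of 239 genes called lower in CAC than in AM (1.63%), the median was -0.33 in KD and -1.41 in CAC, 15 were lower in KD at the limit (background 1.38%), and none was higher. Their medians in KD-1 to KD-4 were 0.0082, -1.16, -0.68, and -0.019. The median in the 5 libraries with B cell genes was 0.09, with 14 higher and 6 lower, and with labelled strain as a covariate and KD-2 left out it was -0.13, with 3 higher and 10 lower.

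Among the genes called between AM and CAC mice, Slc41a3, a magnesium transporter, was at 207, 162, 154, and 89.6 CPM in NOR and 74.2, 76.4, 99.2, and 95.8 CPM in KD (-0.81, and -2.02 in CAC). Dusp10, a phosphatase of stress kinases, was at 158, 79.1, 69.3, and 70.7 CPM in NOR and at 24.5, 31.7, 28.7, and 73.7 CPM in KD, where KD-4 alone was in the NOR range (-1.23). Pkdcc (-0.68), a secreted kinase, Cpxm2 (-0.86), a carboxypeptidase-like protein, Metrn (-0.48), and Cers1 (-0.54), a ceramide synthase of muscle, were lower as well, and Mocs1, of molybdenum cofactor synthesis, was higher (0.52). Cpxm2, Metrn, and Mocs1 separated the groups fully.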

How the data were processed

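Poly(A) RNA of the gastrocnemius of 16 mice was sequenced, and the labels gave 4 mice per group. The authors deposited a table of read counts and of FPKM per gene. The submitters' processing notes name fastp, Bowtie2, HISAT2, StringTie 1.3.1, and the builds mm9 and GRCm38. How reads shared by several genes were counted and whether strand was used is not given in the sources used here. The deposited FPKM served no test, and the authors tested with NOISeq, which was not used here.

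The deposited counts of the 4 KD and 4 NOR libraries were compared with edgeR 4.0.16 (R 4.3.3, TMM scaling, quasi-likelihood F test). Of 21923 genes, 14748 passed the expression filter (minimum count 10, minimum total 15). Genes were called at a fold change of 1.5 or more in either direction if their Benjamini-Hochberg FDR did not exceed 0.05. Levels are TMM-scaled CPM, and the log2 CPM behind the values of single mice used a prior count of 2. The fitted log2 fold changes used edgeR's default prior count instead. CAC against NOR, KD against CAC, and AM against CAC were fitted in the same way, each on its own 8 libraries. CAC against NOR shares its controls with KD against NOR, so values are set side by side. Gene positions came from GENCODE M21, which held 21905 of the identifiers. Both single-gene exact permutation tests and intervals treat the mice as independent.

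DESeq2 1.42.0, limma-voom (limma 3.58.1), other scalings and filters, strain and replicate terms, single strains, and leaving out single mice were alternatives. A covariate for the presence of B cell genes and a fit to the 5 libraries that have them were added after seeing the data, and leaving out KD-3, the library without male-specific genes, was planned. List counts in the report under an alternative cover the members tested in the comparison of all 8 mice. The comparison, gene lists, and named genes were chosen with earlier results of these data known. Genes were named by rank of p and of effect size, as members past the unadjusted limit in each list (at most 6), as its extremes, or as genes central to cachexia. Ly6g, Car2, Hba-a1, Wif1, and Amd2 were named after their values were seen, to complete counts of 10 or fewer. A few genes that met these rules are not reported here. Male-specific genes served as a library check. The statistical scripts were tested on simulated data.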

Additional observations from a re-analysis of the deposited data

Results flagged for a closer look

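In 26 of 270 groups of 4 libraries, over 135 genes named here, 1 mouse stood far from the other 3, by a gap above Dixon's 95% critical value. The nominal rate of 1 group in 20 does not apply here, since many genes were named as extremes and some vary together. KD-2 was the distant mouse in 10 of the 15 KD groups and KD-4 in the other 5, while NOR-4 was in 6 of the 11 NOR groups, NOR-1 in 3, and NOR-2 and NOR-3 in 1 each.

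Red cell genes made up 4 of the groups in which KD-2 was far above the other KD mice. Its levels were 6441 CPM for Hbb-bs, 4898 CPM for Hba-a2, 2645 CPM for Hbb-bt, and 318 CPM for Alas2. KD-2 was also the highest for Cebpd (327 CPM), Lrg1 (188 CPM), Sln (146 CPM), Fbln5 (83.9 CPM), Hgs (49.6 CPM), and Slc39a14 (25.2 CPM). For Alas2, Lrg1, Hgs, and Fbln5 the other 3 KD mice were above the NOR range as well.

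KD-4 was the highest KD mouse, and nearest to the NOR mice, for Dusp10 (73.7 CPM), Pkdcc (115 CPM), Apln (8.21 CPM), and Myl1 (5918 CPM). It was highest for Hspa1b too, at 305 CPM, between the low and the high NOR mice.

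Among NOR mice, NOR-4 was above the others for Pnpla2 (589.9 CPM), Cebpb (37.2 CPM), Cebpd (95.9 CPM), Foxo1 (67.4 CPM), and Trim10 (0.506 CPM), and below them for Cers1 (22 CPM). NOR-1 was the highest for Dusp10 (158 CPM), Col22a1 (53.9 CPM), and Gm49486 (6.96 CPM), NOR-2 for Socs1 (52.8 CPM), and NOR-3 for Smox (526 CPM).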

How the results depend on the processing

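No gene was called with other scalings, filters, fold change limits, strain terms, single strains, or limma-voom, while DESeq2 called 31, with 38 adjusted p-values missing, and the count without 1 mouse was 0 to 1. The 1 gene, without KD-1, was Gm43796 (edgeR FDR = 0.0195). Without 1 mouse, the count of genes higher at an unadjusted p of at most 0.05 was 194 to 583 and that of lower genes 122 to 353, lowest without NOR-2 or NOR-3 and highest without KD-1. The higher count was 124 in the mice labelled BABL/c and 773 in the 5 libraries with B cell genes, where the lower count was 379, and the lower count was 345 with B cell genes as a covariate. Deviations of same-numbered NOR and KD mice from their group means correlated at r = -0.62, -0.26, -0.36, and 0.46, positive for number 4 alone. NOR-1 correlated with KD-2 (0.51) and KD-3 (0.63), the other libraries without B cell genes. Since that split shapes these values, they cannot show whether the numbers pair mice. With the replicate block, 183 genes were higher, no gene was called, the IL-6 median was 0.071, and Trim63 was at -0.055. The strain interaction had 10 calls with DESeq2 and 0 to 8 without 1 mouse, 8 without KD-2 and 4 without KD-4, the latter male-specific genes.

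The IL-6 and STAT3 list median was 0.18 with limma-voom, 0.64 in the mice labelled C57BL/6, 0.17 with strain as a covariate and KD-2 left out, and 0.060 to 0.43 without 1 mouse. In the mice labelled BABL/c it was -0.087 over the members tested in that fit and -0.084 over those tested in all 8 mice. In mice labelled C57BL/6, medians were 0.30 for AP-1 genes (-0.12 to 0.15 without 1 mouse), 0.24 for p53 targets, 0.22 for glutathione genes, 0.14 for fatty acid genes, and 0.012 for ketone body genes. In mice labelled BABL/c they were -0.26 for AP-1 genes, 0.057 for the activin axis, 0.087 for the citric acid cycle, 0.065 for smooth muscle genes, and 0.40 for epidermal genes (0.24 at a minimum count of 50). The glucocorticoid median was -0.19 in the libraries with B cell genes, and the fatty acid median 0.20 with B cell genes as a covariate.

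Single genes changed sign as follows, on the log2 scale. In the libraries with B cell genes, the values were -0.34 for Fbxo32, -0.63 for Trim63, -0.062 for Rab27a, -0.10 for Foxo1, -0.23 for Cebpd, -0.13 for Bnip3, 0.067 for Gm49486, and 0.14 for Col1a1. In mice labelled BABL/c, they were 0.20 for Oxct1, -0.15 for Rab27b, 0.13 for Igfbp5, -0.020 for Il6ra, 0.085 for Pkm, -0.13 for Cebpd, 0.51 for Auts2, 0.028 for Osbpl6, and -0.17 for Cxcr2. In mice labelled C57BL/6, they were 0.048 for Dnajb1, 0.19 for Hspa1b, and -0.96 for Ino80d, which was also -0.014 with upper-quartile scaling, -0.0032 with strain and -0.013 with B cell genes as a covariate. With strain as a covariate and KD-2 left out, they were -0.18 for Fbxo32, -0.65 for Trim63, and -0.10 for Cebpd. Trim63 was at -0.090 with limma-voom and -0.26 with B cell genes as a covariate. Without 1 mouse, Fbxo32 was at -0.097 to 1.11, Trim63 at -0.49 to 0.64, and Ino80d at -0.17 to 0.24, and both ligases were negative without KD-2. The causes were not tested. With 4 mice a group and this spread between KD mice, 10086 of 14748 genes had intervals within 2-fold of no difference.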

Other observations

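A few further genes that DESeq2 called were named after their values were seen. Selp, which encodes P-selectin of platelets and activated endothelium, was at 11.6, 4.65, 12.1, and 8.52 CPM in NOR-1 to NOR-4 and at 52, 45.4, 31.2, and 12.6 CPM in KD-1 to KD-4, a log2 fold change of 1.95 (0.91 to 2.99). All KD mice were above all NOR mice, KD-4 by the least. Entpd1 (CD39), an enzyme that removes extracellular ATP and ADP, was at 30.1, 24.1, 28.5, and 25.8 CPM in NOR and at 54.5, 101, 71.1, and 35.9 CPM in KD, with a log2 fold change of 1.28 (0.65 to 1.91). The edgeR FDR of both genes was 0.999. Ppbp, a platelet chemokine gene, was at 0.677, 0.429, 0.32, and 0.506 CPM in NOR and at 3.27, 4.57, 0.339, and 4.72 CPM in KD, low in KD-3 like the neutrophil genes (2.76). Nfe2, a transcription factor of red cell precursors and megakaryocytes, was at 0.24 to 0.489 CPM in NOR and at 0.622 to 3.5 CPM in KD (2.44).

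Atp8b1 encodes a flippase that needs the Tmem30a protein to leave the endoplasmic reticulum. It was at 8.28, 8.3, 9.32, and 7.05 CPM in NOR and at 13.7, 18.8, 17, and 10.5 CPM in KD, so that, as with Tmem30a, every KD mouse was above every NOR mouse. Its log2 fold change was 0.87 (0.43 to 1.31), with an edgeR FDR of 0.999.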
